A study of Mus musculus with 6 samples.

Results

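Wdr5, Trp53 and Pgk1 were examined in mouse embryonic stem cells as genes tied to the engineering of the lines or to the constructs commonly used for it. All peaks of the 4 deposited lists that lay inside each gene or within 5 kb of its ends (mm10, RefSeq gene extents) were taken, 27 of 183983 peaks in all: 13 at Wdr5, 7 at Trp53 and 7 at Pgk1. The genes were chosen by their role in the engineering and selected on peaks already seen at them in these lists (positions, folds and presence), so their counts and folds are a description. The series mapped WDR5 and the histone mark H3K4me3 by ChIP-seq (sequencing of DNA recovered with an antibody from formaldehyde-fixed chromatin). The cells, embryonic stem cells with a GFP knock-in at Rx grown in 2i+LIF, lacked endogenous Wdr5 and p53 in every library. One line was rescued with wild-type WDR5 (WT rescue) and the other with WDR5 carrying S91K and Y191F, numbered as in the labels (mutant rescue). With 1 WDR5 and 1 H3K4me3 library from each line, a difference between the lines stands without replicates, and no test was made. The sources used here do not give which bases the knockouts removed, how the rescue constructs were built or where they sit, whether each line is a single clone, or whether any cassette carries Pgk1 sequence.

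WDR5 is a WD-repeat protein that joins RBBP5, ASH2L and DPY30 to the KMT2 and SETD1 enzymes, which methylate histone H3 at lysine 4. Trimethylation there (H3K4me3) usually marks the start of genes. Trp53 encodes p53, the transcription factor that arrests or kills cells with DNA damage, and stem cells that lack it tolerate stresses that would otherwise remove them from a culture. Pgk1 encodes phosphoglycerate kinase, a glycolytic enzyme. Its promoter and the sequence at its downstream end, which carries the polyadenylation signal, are widely used in drug-resistance cassettes of mouse targeting vectors. In a peak list, reads from an inserted copy of a sequence and reads from the chromosomal gene cannot be told apart, and the part of inserted copies in the values below was not tested.

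The WT rescue lists held 11095 WDR5 and 71695 H3K4me3 peaks, and the mutant rescue lists 26888 and 74305. Their depth in reads is unknown. The median fold, the authors' enrichment at the summit of a peak, was 2.66 and 2.50 in the WDR5 lists and 4.81 and 4.13 in the H3K4me3 lists. A −log10 q (adjusted p) of at least 2 was reached by 10.8% and 4.83% of the WDR5 peaks, and by 94.0% and 90.7% of the H3K4me3 peaks. The 6 stem cell markers looked up (Pou5f1, Sox2, Nanog, Klf4, Esrrb and Zfp42) all had an H3K4me3 peak within 5 kb in both lines. Fibroblast (feeder) markers had one at 5 of 5 genes in the WT rescue and at 4 of 5 in the mutant rescue. Of all protein-coding genes, 79.3% and 79.0% had one, so the marker counts lie near the background. This mark alone does not show expression.

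All 3 genes had H3K4me3 peaks within 5 kb in both lines, beside 79.3% of 21900 protein-coding genes in the WT rescue list and 79.0% in the mutant rescue list. In the WT rescue WDR5 list all 3 genes had a peak, beside 30.6% of protein-coding genes. In the mutant rescue list Wdr5 and Pgk1 had one and Trp53 had none, beside 36.2%. Of the 10 H3K4me3 peaks at the 3 genes in each line, 10 were overlapped by a peak of the other line. Of the 5 WDR5 peaks of the WT rescue and the 2 of the mutant rescue, 1 was shared, at the start of Pgk1. Over the whole lists, 1288 WDR5 pairs had a peak of a line matching a single peak of the other, among 11095 and 26888 peaks. For H3K4me3 there were 51693 such pairs among 71695 and 74305 peaks. These pairs leave out peaks that overlapped more than 1 peak, so they are a stricter measure than the overlap counted at the 3 genes. By this measure, sharing over the whole lists was also low for WDR5 and high for H3K4me3. With a −log10 q of at least 2, Pgk1 was the only one of the 3 genes left in either WDR5 list, beside 4.34% and 3.81% of protein-coding genes.

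Wdr5 lies on the forward strand of chromosome 2 from 27515147 to 27536535 and spans 21389 bp. The sequence before its start, from RefSeq on GRCm38.p6 (chr2:27514897-27515146, forward strand), is shown because the WT rescue WDR5 peak at the start takes in only its last 10 bases, which are in capitals.
Wdr5: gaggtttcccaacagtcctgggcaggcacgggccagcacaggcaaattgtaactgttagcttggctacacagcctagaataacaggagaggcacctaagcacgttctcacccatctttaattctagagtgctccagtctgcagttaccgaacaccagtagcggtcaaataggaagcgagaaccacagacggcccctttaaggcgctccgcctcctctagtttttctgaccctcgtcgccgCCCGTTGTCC
The peak ran from 10 bp before the start to 392 bp after it, with a fold of 2.35, a −log10 p of 3.05 and a −log10 q of 0. The mutant rescue WDR5 list had no peak at this start, and neither did most genes: of 17492 protein-coding genes with a known strand, 14.9% had a WDR5 peak within 1 kb of the start in the WT rescue list and 8.46% in that of the mutant rescue. H3K4me3 peaks lay over the start in both lines, as they lay within 1 kb of the start at 65.4% of genes in the WT rescue list and 64.6% in that of the mutant rescue. At Wdr5 they ran from 642 bp before to 1344 bp after it in the WT rescue (fold 6.52) and from 498 bp before to 1270 bp after it in the mutant rescue (fold 7.44).

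Inside Wdr5 the H3K4me3 peaks were narrower and of higher fold than the peak at the start. The first lay 5179 to 5831 bp after the start in the WT rescue (fold 21.3) and 5189 to 5831 bp after it in the mutant rescue (fold 22.6). The second ran from 27532876 to 27533485 in both lists, 610 bp, with folds of 11.9 and 11.5. The third covered 266 bp from 27534707 and 267 bp from 27534706, with folds of 31.7 and 32.3, and ended 1563 bp before the downstream end of the gene. Only 0.165% of the WT rescue peaks and 0.110% of the mutant rescue peaks had a fold as high as the third peak. A fold above that of the start at 3 or more internal peaks in both lists was seen at 0.806% of the 11168 protein-coding genes with a start peak in both. The limit of 3 was the count at Wdr5 itself, so Wdr5 was sure to be included. With any internal peak above the start in both lists, the share was 8.57%. Internal peaks of other genes can be the starts of transcripts that lie within them, so these shares are a loose comparison.

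**Figure D1:**
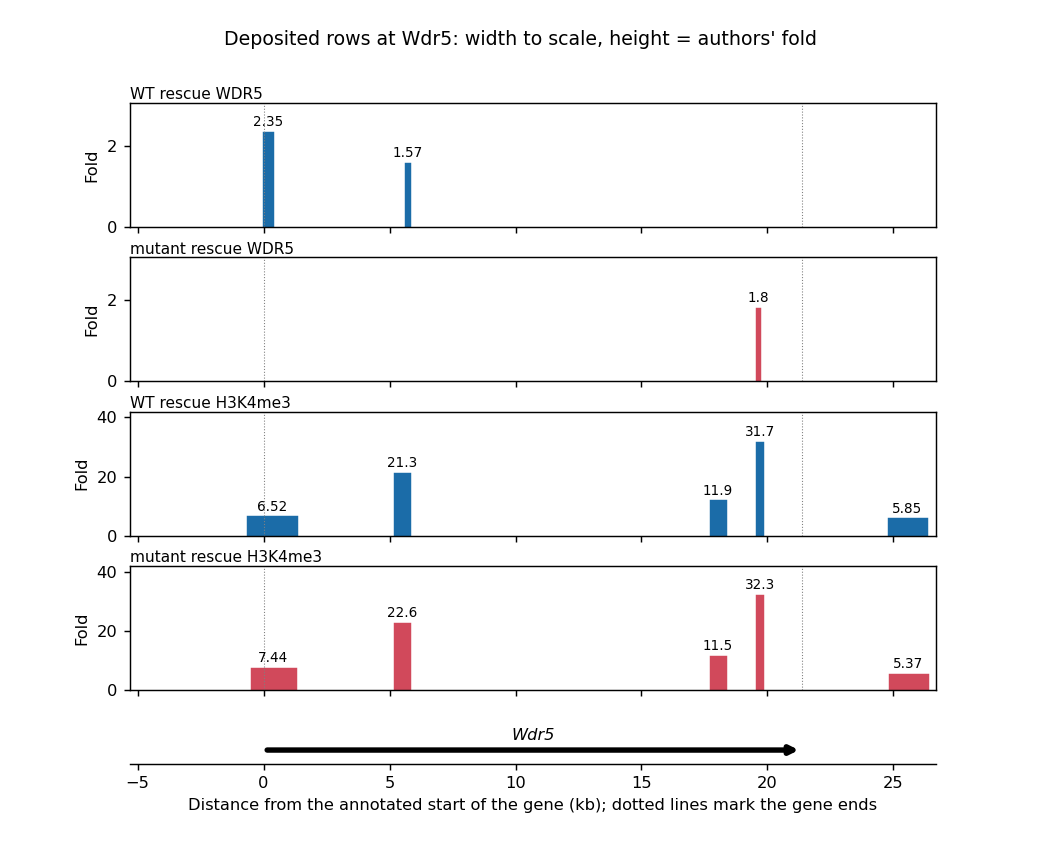
Peaks at Wdr5 in the 4 lists. The horizontal axis is the distance from the annotated start in kb, each bar covers a peak to scale, and its height is the authors' fold in that list. The 3 internal H3K4me3 peaks stand at the same places in both lines and above the peak at the start.

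The edges of the internal Wdr5 peaks fell at the same base, or nearly so, in separate libraries. Over all 51693 H3K4me3 pairs in which a peak of one line matched a single peak of the other, both edges lay within 1 bp of each other in 120 pairs (0.232%, exact 95% interval 0.193 to 0.278%). The second and the third Wdr5 peaks are 2 of these 120, and Wdr5 was the only protein-coding gene that held more than 1 such pair. A protein-coding gene was overlapped by 49 of the 120. The limit of 1 bp equals the first-base shift of the third Wdr5 pair. With identical edges required, only the second Wdr5 pair would be left, so the count at Wdr5 is a description. The 120 pairs had a median width of 283 bp, and 15 were at least 600 bp wide, the 610 bp Wdr5 pair among them. The limit of 600 bp lies just below the width of that pair. Of the 120, 61 had a fold of at least 10 in both lists, both Wdr5 pairs included. The median folds of the H3K4me3 lists were 4.81 and 4.13. Such edges at high-fold peaks were thus not particular to Wdr5. At a looser limit of 10 bp for both edges, 4 of the 10 pairs at the 3 genes qualified, beside 1.51% of all pairs. They were the 3 internal Wdr5 pairs and the downstream end of Pgk1. This limit equals the first-base shift of the first internal Wdr5 pair, so that pair was sure to qualify. With genes selected on peaks already seen, the share is a loose comparison. The first internal peak kept its last base, 27520978, and its summit in both lines, while its first base moved by 10 bp. The summits of the 610 bp pair lay 360 bp apart, although its edges were identical. The peaks at the start of Wdr5 moved by 144 and 74 bp at their edges, close to what was usual: the median summed shift of both edges over all pairs was 179 bp.

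**Figure D2:**
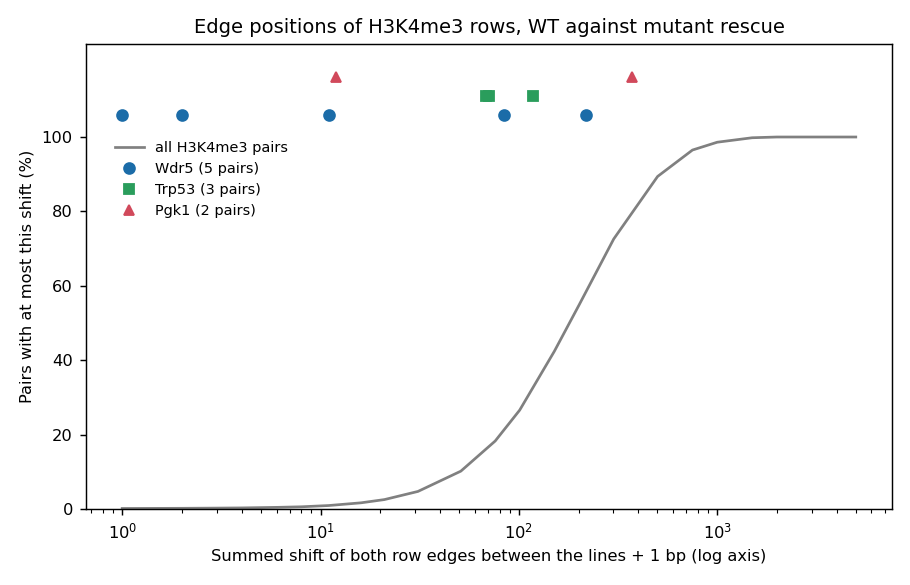
Shift of H3K4me3 peak edges between the WT and the mutant rescue. The grey line gives the percent of all 51693 pairs whose summed edge shift is at most the value on the horizontal axis (log axis, with 1 bp added), and the symbols above it mark the pairs of each gene at their shift; their height has no meaning. The leftmost Wdr5 pairs have shifts of 0 and 1 bp, and the Trp53 pairs lie nearer the middle.

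The WDR5 peaks inside Wdr5 each shared 1 of these edges, although their folds were low and neither reached a −log10 q of 2. Their other edges lay 437 bp from the H3K4me3 edge in the WT rescue and 116 bp from it in the mutant rescue. In the WT rescue a WDR5 peak of 216 bp lay 5616 to 5831 bp after the start and ended at the same base as the first internal H3K4me3 peak, with its summit 1 bp from the H3K4me3 summit. Its fold was 1.57 and its −log10 q 0, and 99.6% of the peaks in that list had a fold at least as high. In the mutant rescue a WDR5 peak of 151 bp began at 27534706, the first base of the third H3K4me3 peak, with its summit 14 bp from the H3K4me3 summit. Its fold was 1.80, its −log10 p 4.40 and its −log10 q 0.622. By −log10 p it was in the top 17.3% of its list, while 99.2% of peaks there had at least its fold. The WT rescue peak was only in the top 74.7% of its own list by −log10 p. At least 1 edge within 1 bp of the overlapping H3K4me3 peak was seen for 3.0% of 4371 such WDR5 peaks in the WT rescue and 3.06% of 2937 in the mutant rescue. Each internal WDR5 peak was in 1 line only, at a different internal H3K4me3 peak.

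The last H3K4me3 peak within 5 kb of Wdr5 lay past the gene, starting 3408 bp beyond its end in the WT rescue and 3436 bp beyond it in the mutant rescue. Its folds were 5.85 and 5.37. It covered the start of the long non-coding RNA gene Gm13421 and lay beside the small nuclear RNA gene Gm25541. The next H3K4me3 peaks downstream, outside the 5 kb limit, began 8235 and 8301 bp past the gene. The nearest upstream ended 7669 and 7915 bp before the start of Wdr5. They lay at the start of Brd3, a bromodomain gene 7489 bp away that runs the other way. Wdr5b, a paralogue of Wdr5 on chromosome 16, had 1 H3K4me3 peak in each line. It ran from 36040678 to 36042166 in the WT rescue (fold 11.5) and from 36040666 to 36041994 in the mutant rescue (fold 11.1). No WDR5 peak lay within 5 kb of Wdr5b. How alike Wdr5 and Wdr5b are in sequence was not measured. Any reads that match both genes cannot be assigned with confidence, and how such reads were counted is not given in the sources used here.

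Trp53 lies on the forward strand of chromosome 11 from 69580348 to 69591873, 97 bp from the start of Wrap53, which runs the other way and encodes a component of telomerase. These 97 bases, from RefSeq on GRCm38.p6 (chr11:69580251-69580347, forward strand), are shown because the H3K4me3 peak over the start of Trp53 begins among them in the mutant rescue; the 52 bases it covers are in capitals.
Trp53: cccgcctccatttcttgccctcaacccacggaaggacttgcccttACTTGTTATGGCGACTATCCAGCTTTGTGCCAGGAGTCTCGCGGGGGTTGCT
In the WT rescue the peak began 1 bp before the start and ran to 1537 bp after it, with a fold of 4.53. In the mutant rescue it ran from 52 bp before to 1521 bp after the start, with a fold of 5.10. The summits lay 558 and 556 bp after the start, and 4.82% of all H3K4me3 pairs had summits within 2 bp, a limit equal to the shift at Trp53. A second H3K4me3 peak, inside Wrap53, ended 1101 bp before the start of Trp53 in the WT rescue (fold 3.45) and 1091 bp before it in the mutant rescue (fold 3.09).

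Between these H3K4me3 peaks the 2 lists left gaps of 1099 and 1038 bp, which hold the start of Wrap53. Most peaks that lay over a gene start or began within 60 bp after it reached farther upstream: the median was 427 bp in the WT rescue and 406 bp in the mutant rescue, and 3.72% and 5.89% of genes had a peak that reached no farther than at Trp53. A peak at the start, another 1 to 2 kb upstream and none from 60 bp to 1 kb upstream was found in both lists at 12 of 9854 genes (0.122%), a rule written after the Trp53 values were seen. The fold of the Trp53 start peak was reached by 52.6% and 39.1% of all H3K4me3 peaks, those away from gene starts included. Among the strongest H3K4me3 peaks of genes it stood low, at percentiles 5.2 and 8.4.

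The rest of Trp53 held little. A weak H3K4me3 peak began 1937 bp after the start in the WT rescue and 1934 bp after it in the mutant rescue, with a fold of 1.39 in both lists and a −log10 q of 4.05 and 3.62. From there on no H3K4me3 peak was listed over the remaining 9272 and 9386 bp of the gene, and the next ones lay 7459 and 7331 bp past its end, at Atp1b2, a sodium pump subunit gene. The sole WDR5 peak, in the WT rescue, lay 1252 to 976 bp before the start, partly over the upstream H3K4me3 peak, with a fold of 2.48 and a −log10 q of 0. The pseudogene Trp53-ps on chromosome 17 had an H3K4me3 peak within 5 kb in the WT rescue alone (fold 3.08) and a WDR5 peak in the mutant rescue alone (fold 2.57, −log10 q 0.0171).

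**Figure D3:**
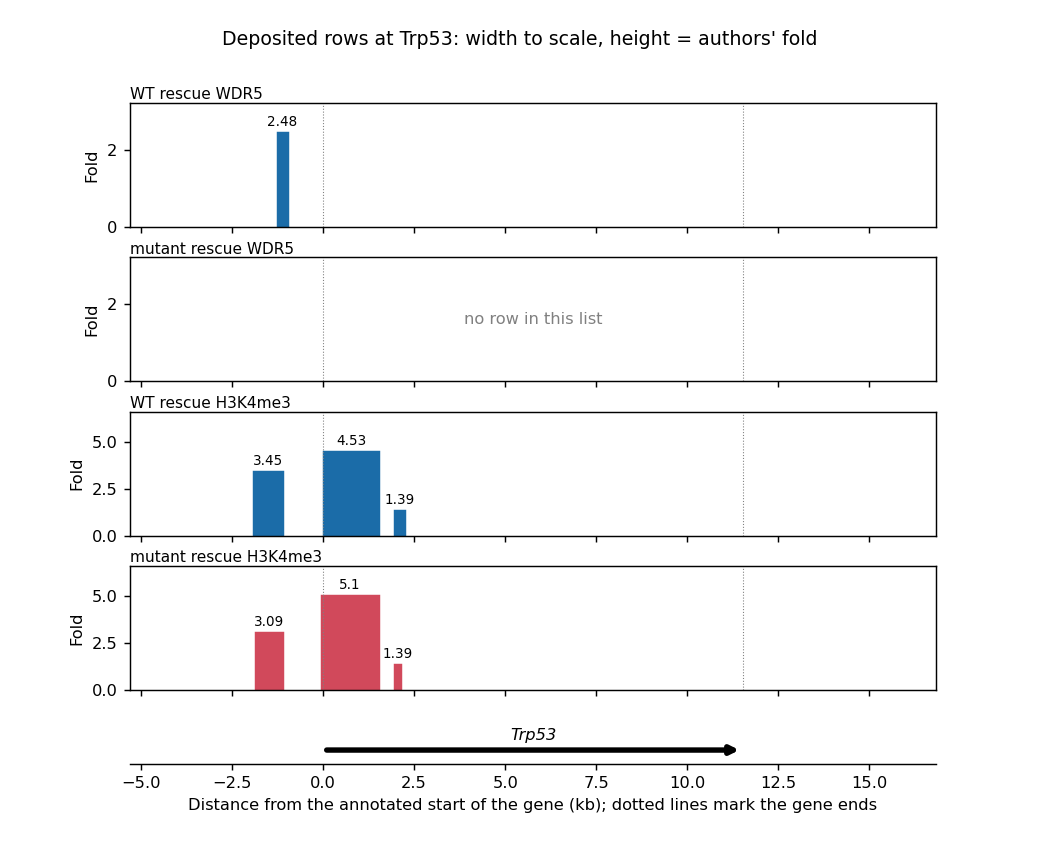
Peaks at Trp53 in the 4 lists, drawn as distance from the annotated start in kb against the authors' fold, with peak widths to scale. The H3K4me3 peak over the start hardly passes upstream of it, and no peak is listed in the later part of the gene.

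Pgk1 lies on the forward strand of chromosome X from 106187100 to 106203699 and was marked at both of its ends. The sequence before its start, from RefSeq on GRCm38.p6 (chrX:106186850-106187099, forward strand), is shown because the summits of all 4 lists fell within it; the capitals mark the 4 bases that the summits span.
Pgk1: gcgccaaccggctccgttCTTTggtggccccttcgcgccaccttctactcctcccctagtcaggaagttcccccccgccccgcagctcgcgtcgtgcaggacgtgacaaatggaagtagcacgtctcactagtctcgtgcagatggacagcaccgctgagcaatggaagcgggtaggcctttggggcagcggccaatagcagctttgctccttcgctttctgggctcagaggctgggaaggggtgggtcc
The summits lay 230 bp before the start in both WDR5 lists, 232 bp before it in the WT rescue H3K4me3 list and 229 bp before it in the mutant rescue H3K4me3 list. Of 667 genes with a start peak in all 4 lists, Pgk1 was the only one whose summits fell within 3 bp (0.150%), and the median spread was 389 bp. The limit of 3 bp was the spread at Pgk1 itself, so Pgk1 was sure to be included. The genes were not matched for the strength of their peaks, so this share is a loose comparison. Over both ends of Pgk1 and the first internal peak of Wdr5, 3 of the 5 WDR5 peaks at the 3 genes in the WT rescue had their summit within 2 bp of the H3K4me3 summit, beside 2.65% of all such pairs. In the mutant rescue 1 of 2 did, beside 3.4%. The limit of 2 bp equals the largest of the 3 summit shifts in the WT rescue, so all 3 peaks were sure to qualify. With genes selected on peaks already seen, these shares too are a loose comparison.

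At the start of Pgk1 the H3K4me3 peak covered 470 bp before to 942 bp after the start in the WT rescue (fold 23.4) and 443 bp before to 598 bp after it in the mutant rescue (fold 24.8). These folds were reached by 0.543% and 0.249% of peaks. The WDR5 peak covered 378 bp before to 134 bp after the start in the WT rescue, with a fold of 3.46 and a −log10 q of 43.3. In the mutant rescue it covered 302 bp before to 74 bp after the start, with a fold of 2.02 and a −log10 q of 14.0. By significance the mutant rescue peak was in the top 1.41% of its list, while 95.3% of peaks in that list had at least its fold.

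At the downstream end of Pgk1 the H3K4me3 peak was narrow and among the highest of the list. It covered 377 bp in the WT rescue, from 128 bp before the annotated end to 248 bp past it, and 366 bp in the mutant rescue, from 122 bp before to 243 bp past it. Its folds of 57.2 and 59.3 ranked 6 of 71695 and 7 of 74305 peaks. They were 2.44 and 2.39 times the fold at the start. Both lists had a higher fold at the downstream end than at the start for 3.02% of 11168 genes. The WT rescue WDR5 list had a peak of 237 bp at the same place, with a fold of 4.16 and a −log10 q of 23.0, and its summit lay 1 bp from that of H3K4me3. The mutant rescue WDR5 list had none there. A WDR5 peak within 1 kb of the downstream end was listed at 1.56% of 17492 genes in the WT rescue list and 2.50% in that of the mutant rescue.

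**Figure D4:**
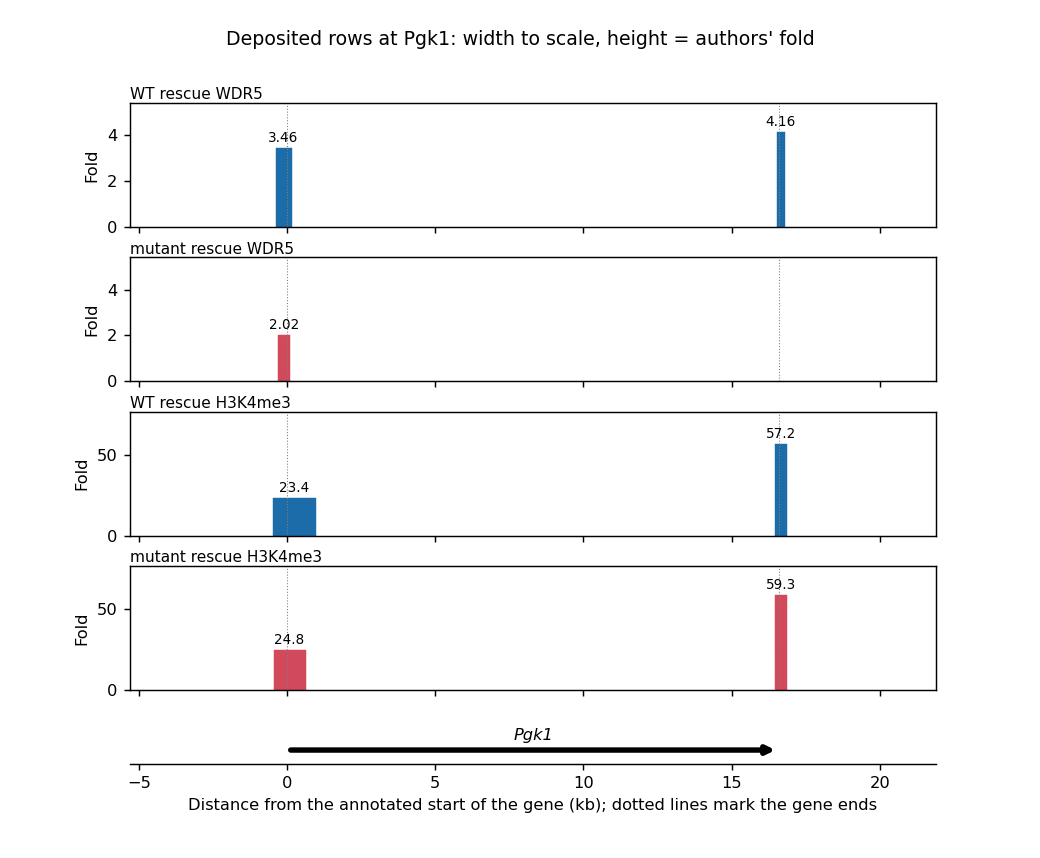
Peaks at Pgk1 in the 4 lists, drawn as distance from the annotated start in kb against the authors' fold, with peak widths to scale. Both ends of the gene carry H3K4me3 peaks in both lines, the downstream end at folds of 57.2 and 59.3, and the WDR5 peak at the downstream end is in the WT rescue alone.

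No peak of any list lay between the ends of Pgk1, over 15528 bp in the WT rescue H3K4me3 list and 15878 bp in the mutant rescue H3K4me3 list. Among genes with an H3K4me3 start peak, 47.2% and 49.4% had no such peak inside or at the downstream end, so an unmarked interior was common. Within 5 kb on either side there was none beyond those described. Taf9b, a transcription factor subunit gene that converges on Pgk1, ends 3174 bp away. The paralogue Pgk2, which is expressed in testis, had no peak within 5 kb in any list, and neither did the pseudogenes Pgk1-ps1 and Pgk1-rs7. Pgk1-ps3 had a single WDR5 peak in the mutant rescue, with a fold of 2.07 and a −log10 q of 0.

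High H3K4me3 folds at more than 1 place set Wdr5 and Pgk1 beside few other genes. Peaks of fold 20 or more made up 1.15% of the WT rescue list and 0.546% of the mutant rescue list. At least 2 such peaks within 5 kb, in both lists, were found at 4 of 21900 protein-coding genes (0.0183%): Wdr5, Pgk1, Gm40862 and Zfp993. The latter pair are far longer, at 238401 and 478623 bp, against 21389 and 16600 bp. The fold of 20 was chosen after the values were seen; with a fold of 10 or more there were 1413 such genes (6.45%), again with Wdr5 and Pgk1 among them. Trp53 had no peak of fold 10 in either list.

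**Figure D5:**
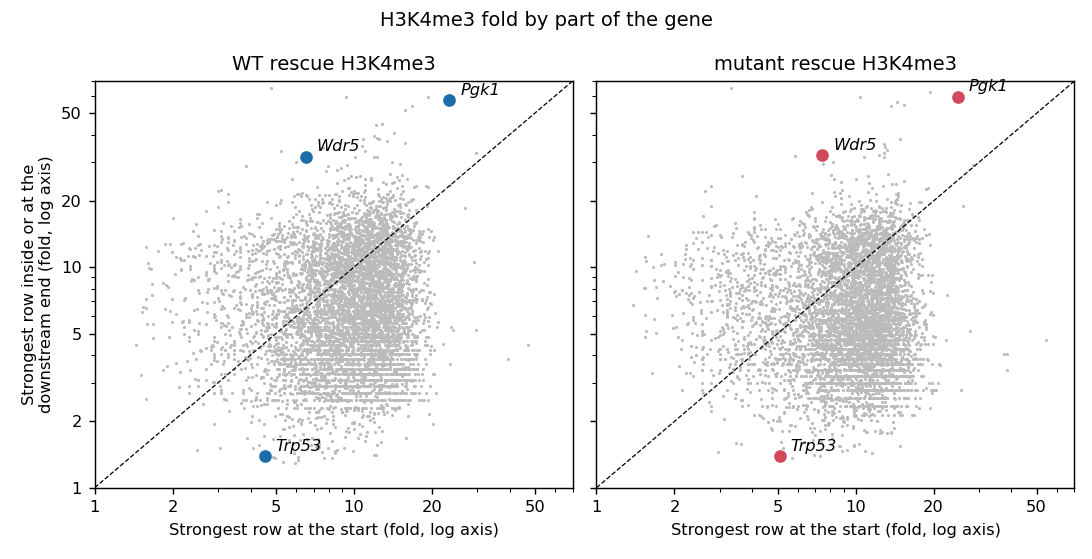
Strongest H3K4me3 peak inside a gene or at its downstream end against the strongest peak at its start, as authors' folds on log axes, for protein-coding genes with both (grey) in each line. Points above the dashed line have the higher fold away from the start; Wdr5 and Pgk1 lie above it and Trp53 below it in both lines.

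In the 250 bases before the start, GC content was 54.4% for Wdr5, 52.8% for Trp53 and 62.8% for Pgk1, beside a median of 52.4% over 32851 RefSeq promoter windows. A GC box (GGGCGG, either strand), a binding site of Sp1-type factors, occurred once each before Wdr5 and Pgk1 and not before Trp53; 32.7% of windows held at least 1. A CCAAT box (CCAAT, either strand) occurred once each before Trp53 and Pgk1 and in 33.8% of windows. The letters TATAAA, on either strand, occurred once before Trp53 and in 12.4% of windows. These motifs do not overlap in their letters, and a match is a description of sequence only.

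Genes that work with the 3 were looked up in the same way, from lists written with earlier results of these data known. Of 9 genes for WDR5 partners and H3K4 methyltransferases, 9 had an H3K4me3 peak within 5 kb in each line, and 4 and 6 a WDR5 peak in the WT and the mutant rescue. Kmt2a and Kmt2d, which encode methyltransferases, were the only ones with a WDR5 peak of −log10 q 2 or more, both in the WT rescue, at folds of 3.12 and 4.11. Over all protein-coding genes the shares were 79.3% and 79.0% for H3K4me3, 30.6% and 36.2% for any WDR5 peak, and 4.34% and 3.81% for a WDR5 peak of −log10 q 2 or more. Of 6 p53 regulators and relatives, 6 had H3K4me3 in each line and 3 a WDR5 peak in each, to be read against the same shares. Mdm4, an inhibitor of p53, had the only one of −log10 q 2 or more, a peak of fold 5.54 in the mutant rescue. It lay outside the gene, more than 1 kb from either end. Mdm2, the ubiquitin ligase that degrades p53, and the cell-cycle inhibitor gene Cdkn1a had none, and Mdm2 had an H3K4me3 fold of 9.89 at its start in both lists.

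Among 13 other glycolytic genes, including the testis paralogue Pgk2, 12 had H3K4me3 within 5 kb in each line, and 8 and 4 had a WDR5 peak, none of −log10 q 2 or more. The shares over all genes were 79.3% and 79.0% for H3K4me3 and 30.6% and 36.2% for WDR5, so the count of 4 in the mutant rescue lies near the background. Of the 10 with an H3K4me3 peak at the start, 2 had a higher fold elsewhere in the gene in each line. Among all genes with a start peak, 16.3% and 13.3% had a higher fold inside or at the downstream end, so 2 of 10 lies near that share. The genes of the list were Pkm, which encodes pyruvate kinase, with folds of 14.7 and 15.2 at the downstream end against 5.18 and 6.38 at the start, and the aldolase gene Aldoa, with 7.28 and 7.57 inside against 2.99 and 2.08. Neither came near the folds at the downstream end of Pgk1. For Gapdh, a glycolytic gene often used as a reference, the start peak had folds of 3.78 and 4.69.

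Likeness across the 4 lists was measured as the mean absolute difference of 4 percentiles, each the place of a gene's strongest peak among all genes with a peak in that list, or 0 without one. Lists of a line come from the same cells and may share a control, so likeness is a description. Nearest to Wdr5 were Fbxw4 (mean difference 0.20 percentage points), Mtmr6 (0.95) and Ubxn11 (1.20). Nearest to Trp53 were Cmbl (0.78), Id2 (0.95) and Ajuba (1.11). Nearest to Pgk1 was Taf9b (1.13), whose window takes in the same downstream peak of Pgk1, followed by Gm40862 (1.65) and Wdr41 (1.83). The percentiles of Pgk1 were 94.4 and 4.5 in the WDR5 lists of the WT and the mutant rescue and 100 in both H3K4me3 lists. Those of Wdr5 were 18.9, 0.5, 99.7 and 99.8, and those of Trp53 27.0, 0, 5.2 and 8.4.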

How the data were processed

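Per the labels' protocols, cells were fixed for 10 minutes in 1% formaldehyde. Per the submitters' processing notes, MACS2 2.1.2, BWA 0.7.17-r1188, Picard and SAMtools were used on mm10; settings and controls are not given in the sources used here. The deposited lists, 1 per library, give the authors' fold (ratio to background at the summit), −log10 p, −log10 q, score and summit position. The score followed the −log10 p and was not used. Read depth is unknown. The 2 input libraries were not analysed here.

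Genes came from RefSeq on GRCm38.p6, which shares mm10 coordinates; strand came from the promoter table, which covered 17492 of 21900 protein-coding genes. A start or downstream end peak overlapped the 1 kb on either side of that gene end. Exon edges, planned for comparison, and proteins were not used here, because no exon annotation or protein table was used. Overlap meant at least 1 bp. Shares carry exact (Clopper-Pearson) 95% intervals for counting error only. The position code was tested on simulated data. Python 3.11.15, numpy 2.4.6, pandas 2.3.3, scipy 1.17.1 and matplotlib 3.10.9 were used. The genes, lists and rules were chosen with earlier results of these data known. Named genes were the 3 genes, their neighbours, the 3 nearest genes by likeness and up to 4 members of each list. Alternatives were a minimum −log10 q of 2, a minimum −log10 p of 5, windows of 1 and 10 kb, a reciprocal overlap of 50% and lists of equal length. A result at one listed gene is not reported here.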

Additional observations from a re-analysis of the deposited data

How the results depend on the processing

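The counts of peaks at the 3 genes depended on the authors' permissive threshold for WDR5 and not for H3K4me3. With a −log10 q of at least 2, and equally with a −log10 p of at least 5, the WDR5 counts at Wdr5 fell from 2 and 1 to 0 and 0 in the WT and the mutant rescue, and the WT rescue count at Trp53 from 1 to 0. The counts at Pgk1 stayed at 2 and 1. Protein-coding genes with a WDR5 peak within 5 kb went from 6710 and 7927 to 951 and 835 at the q threshold and to 1786 and 1514 at the p threshold. A window of 10 kb raised the H3K4me3 counts at Wdr5 from 5 to 8 in each line, by taking in peaks nearer to neighbouring genes. The other 64 of 77 recomputed values stayed within 1.5 times the reported one, among them all under a 1 kb window, a reciprocal overlap of 50% and lists of equal length. The count of genes with at least 2 high H3K4me3 peaks went from 4 to 1413 with a fold of 10, an alternative added after seeing the data. Comparison of peak edges with exon edges, at tolerances of 25, 50 and 100 bp, was not run. Without read totals, a missing WDR5 peak cannot be told apart from low depth, and peaks say nothing on whether a gene is intact.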

Other observations

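Hprt, a purine salvage gene often used as a selectable locus in mouse stem cells, had no peak within 5 kb in any of the 4 lists, although 79.3% and 79.0% of protein-coding genes had an H3K4me3 peak in the WT and the mutant rescue. It lies on chromosome X from 52988078 to 53021660. Whether the parental line carries an intact Hprt is not given in the sources used here, so an altered gene and an unmarked one cannot be told apart. In the WT rescue the H3K4me3 list was empty for 88.5 kb around it, from 26.4 kb before the gene to 28.5 kb after it. In the mutant rescue the empty stretch was 87.7 kb, from 25.7 kb before to 28.5 kb after. Other loci often used in engineering had H3K4me3 within 5 kb in both lines. The strongest folds were 5.35 and 7.55 for the actin gene Actb, 4.08 and 5.59 for the elongation factor gene Eef1a1 and 5.07 and 6.05 for Gt(ROSA)26Sor, a widely used safe site for insertion. These were all below the folds at both ends of Pgk1. Eef1a1 and Gt(ROSA)26Sor had WDR5 peaks of −log10 q 3.33 and 4.91 in the WT rescue, and neither had one of −log10 q 2 or more in the mutant rescue.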
